A study of Mus musculus with 24 samples.

Results

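Collagen, laminin and integrin genes were followed in MIN6 cells, an insulinoma-derived β cell line of the mouse, after stable modulation of miR-146a-5p and exposure to proinflammatory cytokines. The genes were taken by symbol from the count table as every symbol that starts with Col and a digit, with Lama, Lamb or Lamc and a digit, or with Itga or Itgb. This gave 82 of 17696 listed genes, which comprised 42 collagen, 11 laminin and 25 integrin genes and 4 genes that meet the symbol rule without encoding such a chain (Itgb1bp1, Itgb1bp2, Itgb3bp and Itgbl1). Scr cells carried a lentiviral vector with a scrambled sequence, ZIP cells an antisense sequence against miR-146a-5p in the same vector backbone, and OE cells a different vector that overexpresses miR-146a-5p. All 3 lines had been selected with puromycin and expanded from picked clones, so line and clone, and in OE also the vector, cannot be told apart. Each line was cultured without cytokines (Scr, ZIP, OE) or for 24 h with a mix of TNFα (10 ng/ml), IFNγ (100 ng/ml) and IL-1β (5 ng/ml) (Scr+Cy, ZIP+Cy, OE+Cy), with 4 libraries in each of the 6 groups. The labels number the libraries of a group as replicates 1 to 4 and do not say that they came from independent cultures, so p values measure the spread between these libraries, which may be technical. The first replicate of every group bears the mark P65.

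Collagens are trimeric proteins of the extracellular matrix, and include the fibrillar collagens, the network-forming type IV collagens of basement membranes and smaller families that decorate fibrils or span the membrane. Laminins are basement membrane proteins assembled from an α, a β and a γ chain, and each isoform is named by its chains. Integrins are receptors of an α and a β chain that bind these proteins and link them to the cytoskeleton. In pancreatic islets, β cells contact a basement membrane that is largely deposited by endothelial cells, and integrins with the β1 chain mediate much of this contact.

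The mature sequence of miR-146a-5p (mouse genome GRCm38.p6, chr11:43374435-43374456, minus strand, RefSeq) is shown because its seed, bases 2 to 8 and in capitals, defines the sites searched for in the members. miR-146b-5p has the same seed.
miR-146a-5p: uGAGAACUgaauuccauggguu
A perfect match to this seed, AGTTCTC, was present in an annotated 3′ UTR of 9 of the 82 members (11%), compared with 2296 of 15466 listed genes with an annotated 3′ UTR (14.8%). Of the 9, 5 reached a mean of 1 CPM (read count scaled to library size after TMM normalization) in at least 1 group. Their sites are shown with 11 bases on either side, the match in capitals, since these are the members in which a seed match and a measurable level coincide.
Col11a1: attcaaagataAGTTCTCaaatatacagc
Col6a2: tattaaggtaaAGTTCTCaagccagcagc
Col6a6: tgggaaactccAGTTCTCcatgagtcagg
Itga4: ctcaggaatctAGTTCTCagggggtctcc
Itgad: gcatgggaacaAGTTCTCttcagctctgg
The site lay 1623 bases into a 3′ UTR of 1891 bases in Col11a1 (chromosome 3), 1491 bases into 1763 in Col6a2 (chromosome 10), 703 bases into 1688 in Col6a6 (chromosome 9), 4205 bases into 6508 in Itga4 (chromosome 2) and 78 bases into 326 in Itgad (chromosome 7). A match to the seed is a description of these letters and not a measured site.

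Between 26657795 and 37168207 reads were assigned to genes per library, and the members took 0.112% to 0.158% of them. No pair of libraries within a group agreed to within counting noise. The β cell markers were present in every library. The summed level of 14 connective tissue markers, none of them a member and 12 of them listed, was 24.7, 52.5 and 63.0 CPM in replicate 1 of Scr, ZIP and Scr+Cy, and 6.49 to 16.4 CPM in replicates 2 to 4 of these groups. Elsewhere it ranged from 12.9 to 16.1 CPM (ZIP+Cy), from 1.05 to 3.39 CPM (OE) and from 2.74 to 4.31 CPM (OE+Cy). By the rule given below, 4 markers were lower and 0 higher in OE than in Scr, among them Fbn1 and Fbln1 (14.3-fold and 11.5-fold). In ZIP, 1 was higher and 1 lower than in Scr, the latter Fbln1 (20.6-fold). Replicate 1 was also the highest in OE, at 3.39 CPM against 1.05 to 1.19 CPM in replicates 2 to 4. Every comparison was therefore repeated without the P65 libraries, which leaves 3 libraries per group.

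Members were called when the Benjamini-Hochberg adjusted p value over all 17696 genes was under 0.05 in edgeR's quasi-likelihood test and the fold change was at least 1.5. Fold changes are log2 values from that fit, with their standard error (SE), and levels are mean CPM ± SD (n = 4). A group with 3 reads or fewer in each library (0.0809 to 0.115 CPM) was taken to be at the floor, and a fold change against it is given as a lower bound from 3 reads per library.

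MIN6 cells contained abundant transcripts of few members. A mean of 1 CPM was reached in at least 1 group by 46 members and a mean of 10 CPM by 22, whereas 36 remained below 1 CPM throughout. Per kb of exon, the highest level in Scr was that of Itgb1, the β chain shared by most collagen and laminin receptors (105.5 CPM per kb), followed by Itgav, an α chain of RGD-binding integrins (49.34 CPM per kb), and by Itga6 and Itgb5 (25.09 CPM per kb each). Itga6, which forms laminin receptors, and Itgb5, a partner of Itgav, could not be placed in order. Among the chains, Col16a1, a fibril-associated collagen, followed with 24.05 CPM per kb, Itga3, another laminin-binding chain, with 7.193 and Lamc1, the γ chain of most laminins, with 7.088. Itgb1 differed little between groups, with 402 ± 25.7, 414 ± 20.5 and 431 ± 4.42 CPM in untreated Scr, ZIP and OE and 374 ± 16.7, 385 ± 12.2 and 363 ± 15.4 CPM in the same lines with cytokines. It was not called in any comparison. Itgb5 ranged from 73.9 ± 3.10 CPM in ZIP+Cy to 87.7 ± 3.80 CPM in ZIP, Itga6 from 68.9 ± 11.4 in OE+Cy to 109 ± 10.9 in Scr, Itgb1bp1 from 18.6 ± 1.44 in OE to 23.0 ± 1.40 in ZIP, and Itgb3bp from 10.9 ± 1.06 in OE+Cy to 13.0 ± 1.34 in ZIP. The type I, III and V collagens that dominate connective tissue reached 1 CPM only in some libraries and are described last.

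**Figure D1:**
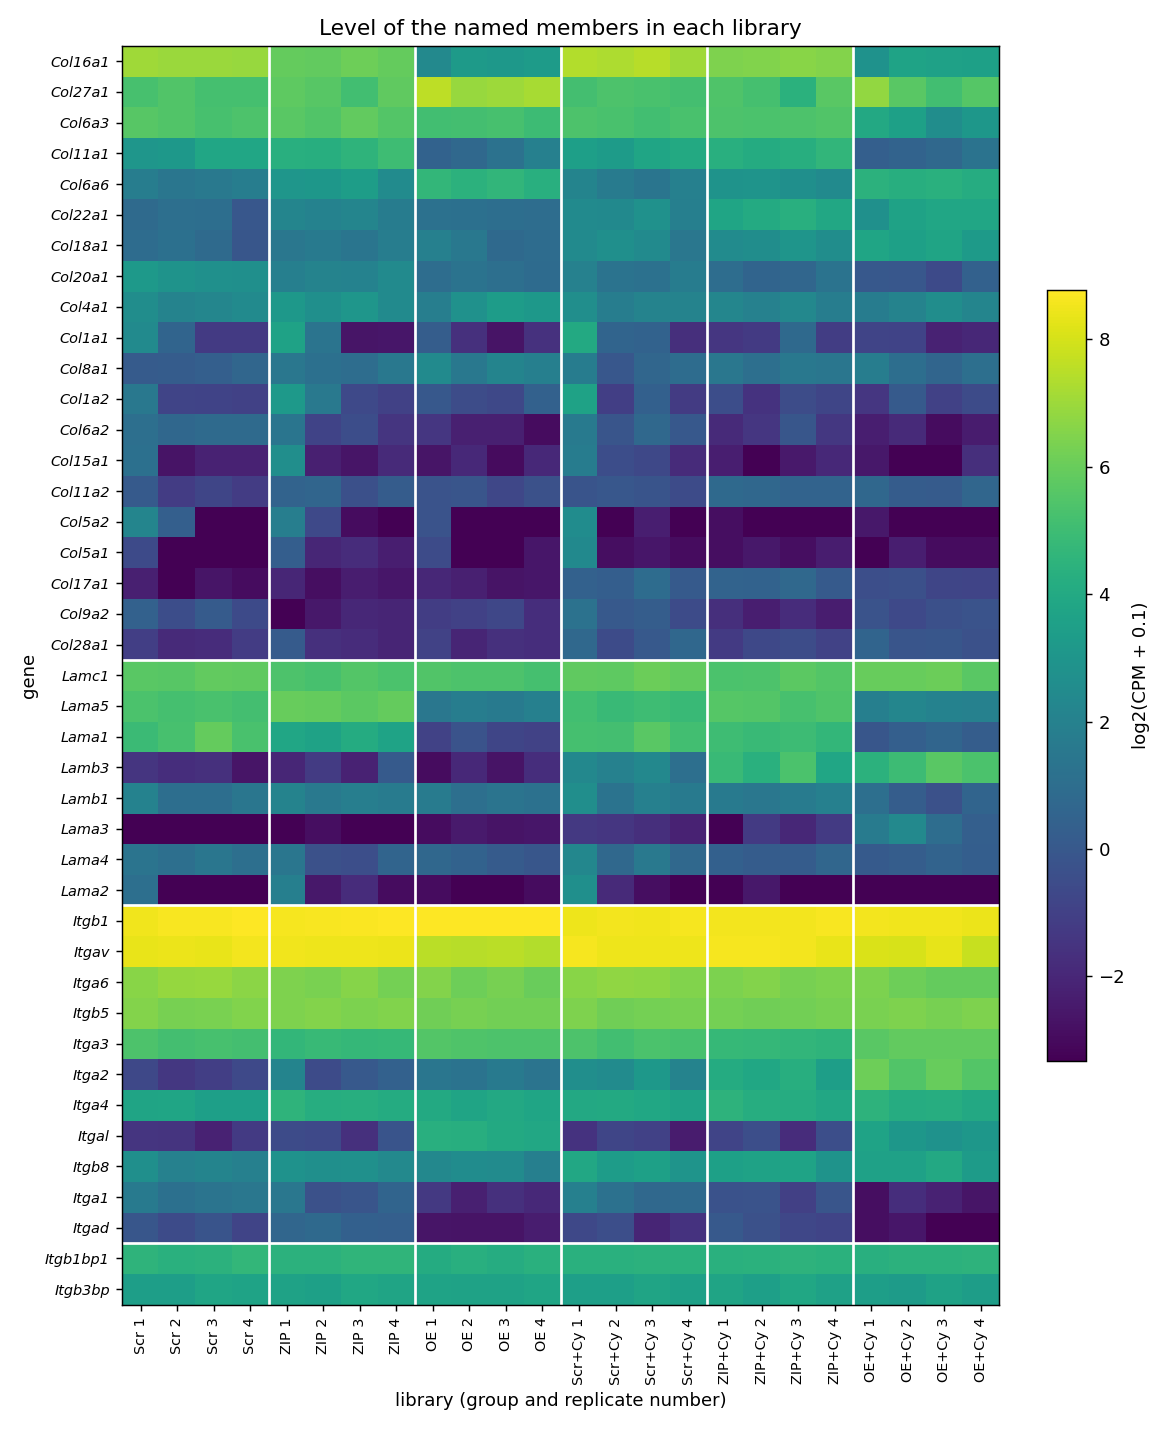
Level of 41 named members (rows) in each of the 24 libraries (columns, by group and replicate number), as log2 of CPM + 0.1. Itgb1 and Itgav are high in every library, Lama1, Lama5 and Col16a1 are low in OE and OE+Cy, and Lamb3 and Itga2 are higher in the cytokine-treated libraries of all 3 lines.

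To ask how the members differed between ZIP and Scr cells, both lines were compared without cytokines. In ZIP, 13 members were higher, while 6.29% of all genes were, and 4 were lower, while 5.89% of all genes were. The collagens accounted for 8 of the 13 higher and 3 of the 4 lower members, the integrins for 4 higher, and 1 laminin chain moved in each direction. The median log2 fold change of the 82 members was 0.34, compared with 0.00 for all genes. With members at the floor in 1 group set to their bound and those at the floor in both left out, it was 0.22 over 69 members.

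Of the laminins, Lama1 (chromosome 17, mm10, 67697265 to 67822645) was lower in ZIP and Lama5 (chromosome 2, 180176373 to 180225859) higher. Lama1 is the α chain of the laminin of early embryonic basement membranes, and Lama5 that of the main laminin of adult epithelia and vessels. Lama1 was at 30.7, 38.4, 60.4 and 39.4 CPM in the 4 Scr libraries and at 14.2, 12.5, 17.2 and 12.7 CPM in ZIP, so the groups did not overlap (log2 fold change −1.57, SE 0.16, adjusted p = 5.6e-08). Lama5 was at 40.7, 37.4, 40.0 and 35.2 CPM in Scr and at 62.8, 61.0, 53.2 and 60.01 CPM in ZIP (0.63, SE 0.08, adjusted p = 2.11e-06). Leaving out P65, both calls were also made, with log2 fold changes of −1.70 and 0.63.

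Col16a1 (chromosome 4, 130047840 to 130099277) was also lower in ZIP. Its level was 131, 125, 126 and 119 CPM in Scr and 60.1, 58.5, 67.97 and 61.0 CPM in ZIP (−1.02, SE 0.14, adjusted p = 2.82e-06). Col20a1, a fibril-associated collagen of low abundance, fell from 7.37 ± 1.15 to 4.29 ± 0.765 CPM (−0.78, adjusted p = 0.00348). Both were also called lower without the P65 libraries, as were Lama1 and Col9a2.

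The higher members in ZIP included 2 chains of the fibrillar collagen XI. Col11a1 was at 7.98, 8.74, 14.3 and 14.3 CPM in Scr and at 20.1, 19.0, 23.3 and 32.6 CPM in ZIP (1.07, SE 0.24, adjusted p = 0.00114), and Col11a2 rose from 0.531 ± 0.299 to 1.12 ± 0.339 CPM (1.06, adjusted p = 0.00984), with libraries that overlapped. Col6a6, a beaded filament collagen, rose from 3.06 ± 0.418 to 8.15 ± 1.99 CPM (1.41, adjusted p = 3.58e-07), and Col22a1, a collagen of tissue junctions, from 1.64 ± 0.527 to 4.07 ± 0.585 CPM (1.31, adjusted p = 2.19e-04). Col8a1 and Col18a1, the latter the precursor of endostatin, rose by 1.01 and 0.83 on the log2 scale (adjusted p = 0.0142 and 0.0279). Itga4, the α chain of receptors for fibronectin and VCAM-1, was at 13.2, 13.5, 11.4 and 11.2 CPM in Scr and at 23.1, 18.4, 19.4 and 17.2 CPM in ZIP (0.66, SE 0.12, adjusted p = 1.61e-04). All of these calls were also made without the P65 libraries. Itga2, a collagen-binding α chain, was called as well (2.03, adjusted p = 0.00448), but ZIP replicate 1 held 4.35 CPM and the others 0.584 to 1.24 CPM. It was not called without the P65 libraries (1.23, adjusted p = 0.0775). In all, 15 of the 17 calls were also made without these libraries, and 7 members were added (Col23a1, Col5a1, Col6a2, Itga1, Itgb3, Lama4 and Lamb2), which brought the number to 22, with 13 higher and 9 lower. All genes were then called higher in 6.27% and lower in 5.63%. Some additions rest on few reads in replicates 2 to 4. Itgb3 held 6, 1 and 1 reads in Scr and 0 in ZIP, and Col23a1 17, 2 and 1 against 1, 0 and 0. Col5a1 held 0 reads in Scr and 4, 6 and 3 in ZIP, and Lamb2 1, 0 and 0 against 8, 4 and 3. Scr replicate 2 also held 48 reads of Col1a1, against 10 in each of replicates 3 and 4.

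Under cytokines, the ZIP and Scr lines were compared in other libraries. In ZIP+Cy, 6 members were higher than in Scr+Cy (5.89% of all genes) and 14 lower (6.7%), with a median log2 fold change of −0.09 for the members and −0.01 for all genes. Without the P65 libraries, 7 were higher and 5 lower, and 10 of the 20 calls were not made. Those lost were Col1a2, Col5a1, Col5a2, Lama2, Lama4, Col11a1, Col20a1, Col23a1, Itga3 and Itgb4, and in replicate 1 of Scr+Cy the connective tissue markers were at their highest. With only that library left out, 9 members were called. Replicate numbers were judged to pair these libraries, though the labels do not say so. With the replicate as a block, Col5a1 (adjusted p = 0.0521), Col1a2 (0.0526) and Col23a1 were not called either.

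Of the differences seen without cytokines, those of Col16a1, Col6a6, Col11a2, Col22a1 and Col9a2 were also called with cytokines, with and without the P65 libraries. Col16a1 was at 165, 158, 179 and 135 CPM in Scr+Cy and at 86.2, 89.3, 100.4 and 91.8 CPM in ZIP+Cy (−0.79, SE 0.14, adjusted p = 7.31e-05). Col22a1 was at 5.27 ± 1.33 CPM in Scr+Cy and 16.4 ± 2.63 CPM in ZIP+Cy (1.64, adjusted p = 1.73e-06). Lama1 differed less, with 36.9, 36.1, 51.3 and 35.1 CPM in Scr+Cy and 31.8, 29.1, 31.5 and 26.1 CPM in ZIP+Cy (−0.43, SE 0.16, adjusted p = 0.0459), under the fold change limit. Lama5 was at 31.5 ± 2.39 and 44.3 ± 4.67 CPM (0.49, adjusted p = 6.65e-05) and did not reach that limit either. Itga1, a collagen-binding α chain, was at 2.32 ± 1.01 CPM in Scr+Cy and at 0.671 ± 0.194 CPM in ZIP+Cy (−1.78, SE 0.39, adjusted p = 9.92e-04). Its difference was −1.46 without the P65 libraries (adjusted p = 0.00116).

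Larger differences were found between OE and Scr cells. In OE, 7 members were higher than in Scr (10.4% of all genes) and 13 lower (13.4%), and 17 of the 20 were also called without the P65 libraries. The comparison shares its Scr libraries with that of ZIP. Both shares of the members (8.54% and 15.9%) lay close to those of all genes, and the median log2 fold change was −0.21 (−0.37 over 68 members with the floor taken into account) compared with 0.00 for all genes. Summed over all chains, laminin transcripts stood at 141 ± 15.9 CPM in Scr and 49.2 ± 2.98 CPM in OE, and collagen transcripts at 252 ± 19.3 and 238 ± 32.7 CPM.

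Of the 5 laminin α chains, 3 were lower in OE and 1 was called higher. Lama1 was at 0.423, 0.762, 0.469 and 0.426 CPM in the 4 OE libraries against 30.7 to 60.4 CPM in Scr, a 79.6-fold difference (log2 fold change −6.32, SE 0.24, adjusted p = 2.43e-16). Lama5 was at 2.66, 3.40, 3.09 and 3.80 CPM in OE against 35.2 to 40.7 CPM in Scr, an 11.8-fold difference (−3.57, SE 0.10, adjusted p = 1.38e-18). Lama4, the α chain of endothelial and mesenchymal laminins, decreased from 2.25 ± 0.271 to 1.18 ± 0.323 CPM (−0.93, adjusted p = 0.0344). The higher one was Lama3, which was at the floor in both groups and was not called without the P65 libraries. The γ chain Lamc1, with which these α chains assemble, was at 54.0 ± 4.65 CPM in Scr and 41.2 ± 2.90 CPM in OE (−0.39, adjusted p = 7e-04), under the fold change limit, and the β chain Lamb1 was at 2.62 ± 0.945 and 2.47 ± 0.515 CPM (adjusted p = 0.82).

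Among the collagens, 5 members were lower and 3 higher in OE. Col16a1 was at 5.08, 9.52, 8.75 and 9.89 CPM in OE against 119 to 131 CPM in Scr (−3.91, SE 0.16, adjusted p = 6.98e-16). Col11a1, Col20a1 and Col6a2, a core chain of type VI collagen, fell by 2.35, 1.86 and 3.69 on the log2 scale (adjusted p = 1.43e-07, 4.27e-08 and 5.19e-05). Col27a1, a fibrillar collagen, was instead at 192, 119, 128 and 148 CPM in OE and at 37.0 to 44.5 CPM in Scr (1.90, SE 0.27, adjusted p = 2.21e-06), so that per kb it was the most abundant collagen in OE (19.27 CPM per kb, with 1.596 for Col16a1). Col6a6 was at 26.0, 21.8, 24.6 and 19.98 CPM in OE and at 2.56 to 3.44 CPM in Scr (2.91, SE 0.16, adjusted p = 2.49e-13), and Col8a1 rose from 1.17 ± 0.222 to 4.04 ± 1.10 CPM (1.79, adjusted p = 2.14e-05). None of the collagen libraries named here overlapped between OE and Scr, and every one of these calls was also made without the P65 libraries.

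Among the integrins, 2 members were higher and 5 lower in OE. Itgav was at 336, 342, 337 and 377 CPM in Scr and at 186, 178, 182 and 165 CPM in OE (−0.97, SE 0.08, adjusted p = 3.14e-10). The collagen-binding chains moved in opposite directions, as Itga1 fell from 2.56 ± 0.384 to 0.199 ± 0.0827 CPM (−3.67, SE 0.44, adjusted p = 1.69e-07) and Itga2 rose from 0.425 ± 0.115 to 2.58 ± 0.263 CPM (2.59, SE 0.48, adjusted p = 8.06e-05). Itgal, the α chain of the leukocyte integrin LFA-1, was at 0.270, 0.259, 0.125 and 0.310 CPM in Scr and at 19.6, 18.9, 16.1 and 15.1 CPM in OE, a 70.9-fold difference (6.15, SE 0.33, adjusted p = 9.56e-14). Its leukocyte partner Itgb2 was not among the called members. Itgal and Itga2 were also called without the P65 libraries, as were Itgav and Itga1.

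Under cytokines, OE+Cy held 15 members higher than Scr+Cy (12.7% of all genes) and 19 lower (14%), with a median log2 fold change of −0.14 for the members and 0.01 for all genes. Without the P65 libraries 34 members were again called, 20 higher and 14 lower, of which 25 were the same, and among those lost were Col1a1, Col1a2, Col5a1, Col5a2 and Lama2. Lama1, Lama5, Col16a1 and Col11a1 were lower than in Scr+Cy, with log2 fold changes of −5.11, −2.97, −3.85 and −2.98 and adjusted p values of 2.23e-15, 3.11e-17, 9.02e-16 and 6.45e-09. Itgal (4.92, adjusted p = 5.14e-12), Itga2 (3.18, adjusted p = 2.09e-09) and Col6a6 (2.53, adjusted p = 3.44e-12) were higher. Itgav, which had been 1.96-fold lower in OE without cytokines, was 1.37-fold lower in OE+Cy, under the fold change limit. Col27a1 was called higher (0.68, adjusted p = 0.0348), but OE+Cy replicate 1 was at 114 CPM and the others at 52.0, 34.4 and 48.2 CPM against 35.5 to 42.8 CPM in Scr+Cy. The difference was 0.21 without the P65 libraries (adjusted p = 0.442).

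**Figure D2:**
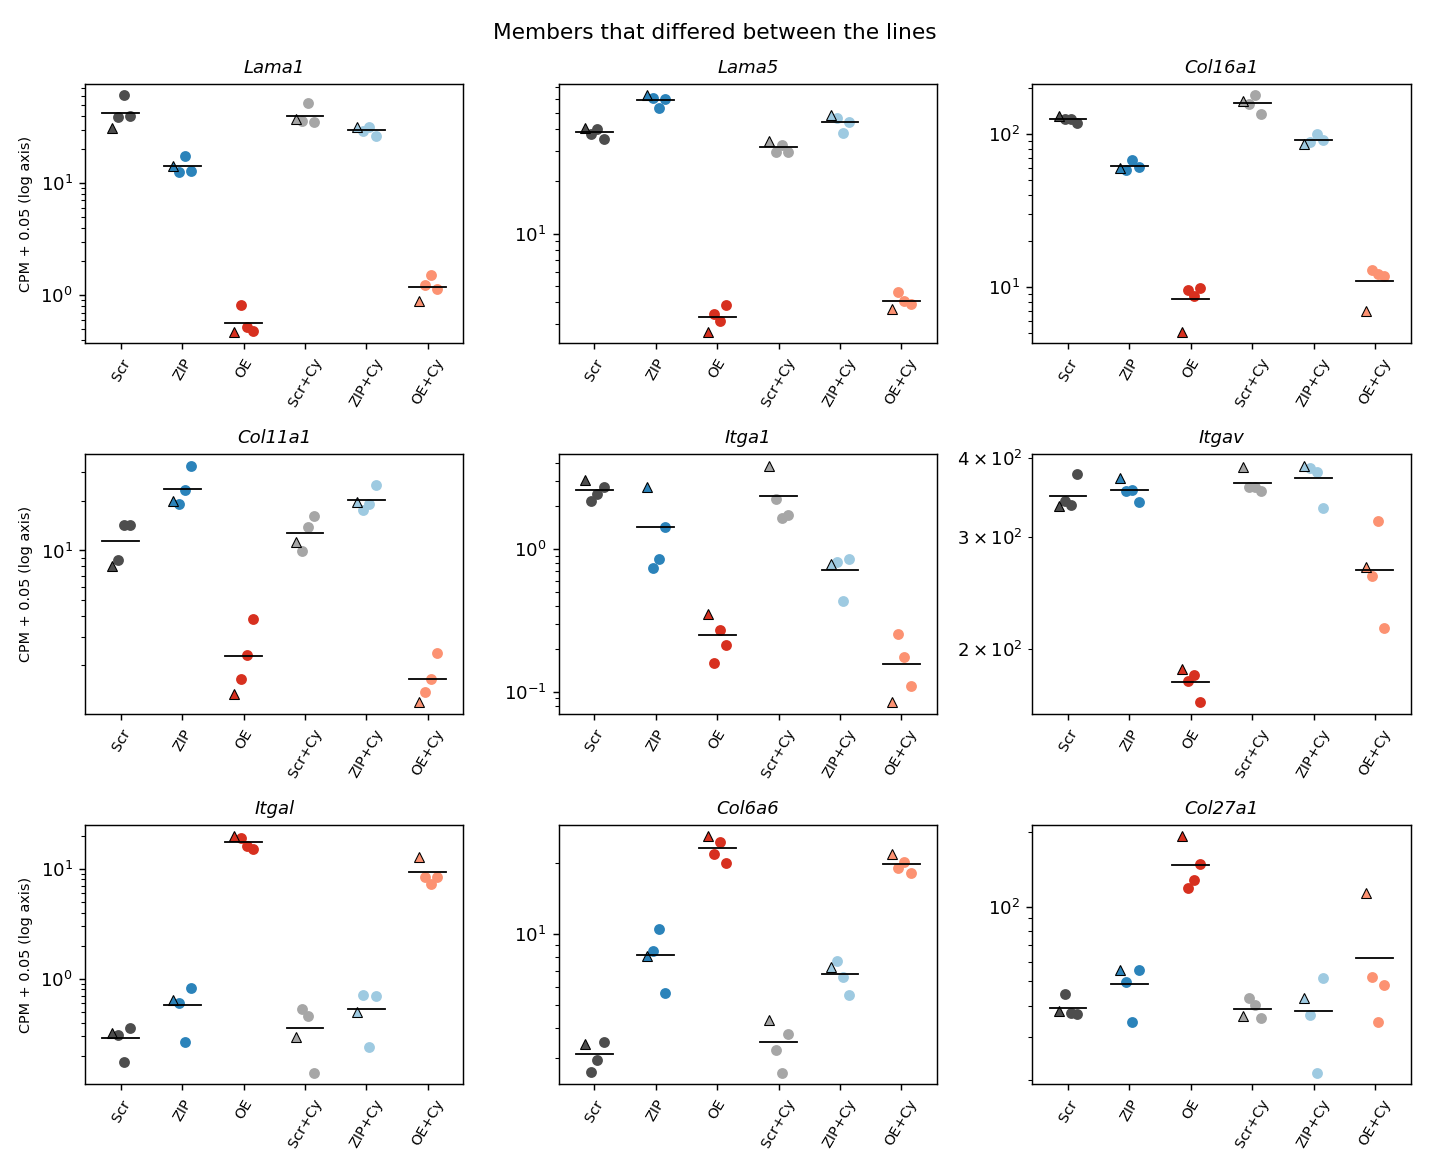
Level of 9 members in the 6 groups as CPM + 0.05 on log axes that differ between panels, with 1 point per library, a triangle for replicate 1 and a line at the mean. Lama1, Lama5 and Col16a1 are lowest in OE and OE+Cy, Itgal is highest there, and Col6a6 increases from Scr to ZIP to OE.

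Of the 5 members with a seed match and a measurable level, those called with all libraries were higher in ZIP and of mixed direction in OE. Compared with Scr, 4 of the 5 were higher and 0 lower in ZIP (Col11a1, Col6a6, Itga4 and Itgad), and in OE Col6a6 was higher and Col11a1, Col6a2 and Itgad were lower. Under cytokines, Col11a1 and Col6a6 were higher and Col6a2 was lower in ZIP+Cy, and Col6a6 was higher and Col11a1, Col6a2 and Itgad were lower in OE+Cy. Both comparisons share a control group, and the count without cytokines stands beside 6.29% of all genes called higher in ZIP and 13.4% called lower in OE. Itgad reached a mean of 1 CPM only in ZIP (1.38 CPM), and Col6a2 only in Scr and Scr+Cy (1.75 and 1.57 CPM). Counting Itgad as higher in ZIP and Col6a2 as lower outside Scr is therefore partly set by that filter. The shares of all genes were taken without it. Col11a1, Col6a6, Itga4 and Itgad were also called in ZIP without the P65 libraries, and all 4 of those named in OE were too. In that setting Col6a2 was called lower in ZIP (−1.88, adjusted p = 0.0014), which makes 4 higher and 1 lower, and Col11a1 was not called in ZIP+Cy. Itgad (also known as CD11d) stood at 0.664 ± 0.174, 1.38 ± 0.226 and 0.0671 ± 0.021 CPM in Scr, ZIP and OE, and every OE library was at the floor (at least 7.52-fold lower). Col6a6 (chromosome 9, 105689417 to 105828085) was higher in both lines, and in ZIP its neighbours moved with it. All 82 listed genes with a mean of at least 10 CPM within 5 Mb of Col6a6 had a positive log2 fold change in ZIP, with a median of 0.80, compared with a median of −0.09 in OE. The part of this stretch of chromosome 9 in the ZIP difference of Col6a6 was not tested.

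To define the response to cytokines, treated and untreated cells of each line were compared. In Scr+Cy, 11 members were higher than in Scr (5.96% of all genes) and 1 was lower (1.61%). In ZIP+Cy, 11 were higher (6.12%) and 5 lower (3.58%), and in OE+Cy 19 were higher (11.8%) and 7 lower (7.37%). The median log2 fold change of the members was 0.48, −0.02 and 0.37 in Scr, ZIP and OE, compared with 0.00, −0.01 and 0.02 for all genes. These medians include the P65 libraries, and those of the fibrillar collagens alone were 1.16, −2.54 and −0.53. Leaving out P65, 9 members were higher and 1 lower in Scr+Cy (5.35% and 1.94% of all genes). In ZIP+Cy the numbers were 13 and 3 (6.14% and 3.72%), and in OE+Cy 22 and 7 (12.1% and 8.19%). With all libraries, 9 members were higher in all 3 lines, 11% of the members, compared with 757 of all genes (4.28%). They included Lama3, Lamb3, Col17a1, Col18a1, Col22a1, Col9a1, Itga2 and Itgb8. Without the P65 libraries there were also 9, with Col28a1 in place of Col9a1. Col20a1 alone was lower in all 3 lines, with log2 fold changes of −1.33, −1.27 and −1.16 in Scr, ZIP and OE, and was so without the P65 libraries too.

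Of the members that rose together, Lama3 and Lamb3 encode an α and a β chain of laminins of epithelial basement membranes, and Col17a1 encodes a transmembrane collagen of the hemidesmosome, the junction that anchors epithelial cells to the basement membrane. Lamb3 (chromosome 1, 193301994 to 193343878) was at 0.270, 0.201, 0.219 and 0.0619 CPM in Scr and at 4.96, 3.82, 4.94 and 2.01 CPM in Scr+Cy (4.33 on the log2 scale, SE 0.57, adjusted p = 3.05e-06). In ZIP it was at 0.146, 0.328, 0.124 and 0.974 CPM and in ZIP+Cy at 29.4, 20.6, 40.9 and 14.1 CPM (6.04, SE 0.46, adjusted p = 2.18e-10). In OE it was at 0.0302, 0.163, 0.0552 and 0.196 CPM and in OE+Cy at 21.9, 31.0, 51.7 and 40.1 CPM (8.31, SE 0.53, adjusted p = 5.31e-12). Treated and untreated libraries did not overlap in any line. Treated ZIP and OE cells held 6.67-fold and 9.23-fold more Lamb3 than treated Scr cells (adjusted p = 5.88e-07 and 1.61e-08), while the untreated lines were not called different.

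Per kb of exon, Lama3 was less abundant than Lamb3 in every group. It was listed at 0 in every Scr library and reached 0.308, 0.275, 0.206 and 0.120 CPM in Scr+Cy, at least 2.57-fold higher. In OE+Cy it reached 3.13, 5.11, 1.89 and 1.18 CPM, at least 32.0-fold higher than in OE, where every library was at the floor. In ZIP+Cy replicate 1 held no read of Lama3 and the others 0.153 to 0.322 CPM. The naming rule asks for 1 CPM, so Lama3 in Scr and ZIP was described after its values had been seen. Col17a1 (chromosome 19, 47646341 to 47692042) was at 0.0503 ± 0.0461, 0.0858 ± 0.0465 and 0.0952 ± 0.044 CPM in untreated Scr, ZIP and OE and at 1.31 ± 0.378, 1.30 ± 0.263 and 0.567 ± 0.118 CPM after cytokines (4.57, 3.86 and 2.52, adjusted p = 4.37e-08, 2.99e-07 and 4.11e-05). Itgb4, which pairs with Itga6 in the hemidesmosome, was not called higher with cytokines in any line.

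Itga2 (chromosome 13, 114833081 to 114932100) had the highest level of the raised members in OE+Cy. It was at 0.513, 0.287, 0.375 and 0.526 CPM in Scr and at 6.28, 5.54, 8.65 and 4.15 CPM in Scr+Cy (3.84, SE 0.44, adjusted p = 3.41e-07). In ZIP it was at 4.35, 0.584, 0.930 and 1.24 CPM and in ZIP+Cy at 17.4, 14.8, 18.9 and 10.9 CPM (3.14, adjusted p = 1.21e-07). In OE it was at 2.63, 2.31, 2.92 and 2.46 CPM and in OE+Cy at 69.8, 45.5, 62.0 and 45.9 CPM (4.43, adjusted p = 4.85e-11). The treated levels were thus ordered Scr+Cy, ZIP+Cy and OE+Cy with no overlap. Col22a1 rose by 1.68, 2.01 and 2.53 on the log2 scale in Scr, ZIP and OE, to 5.27 ± 1.33, 16.4 ± 2.63 and 11.8 ± 3.51 CPM. Col18a1 rose by 1.61, 1.14 and 2.25, to 4.98 ± 1.62, 6.39 ± 1.01 and 11.98 ± 1.93 CPM. Itgb8, the β chain of an integrin that activates latent TGFβ, rose by 1.29, 0.82 and 1.30 to near-equal levels of 11.2 ± 3.26, 11.1 ± 2.54 and 12.3 ± 2.46 CPM. Col9a1 was called in each line, but it held no read in Scr and 1 to 4 reads per library in Scr+Cy, and it did not exceed 0.449 CPM in any library.

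**Figure D3:**
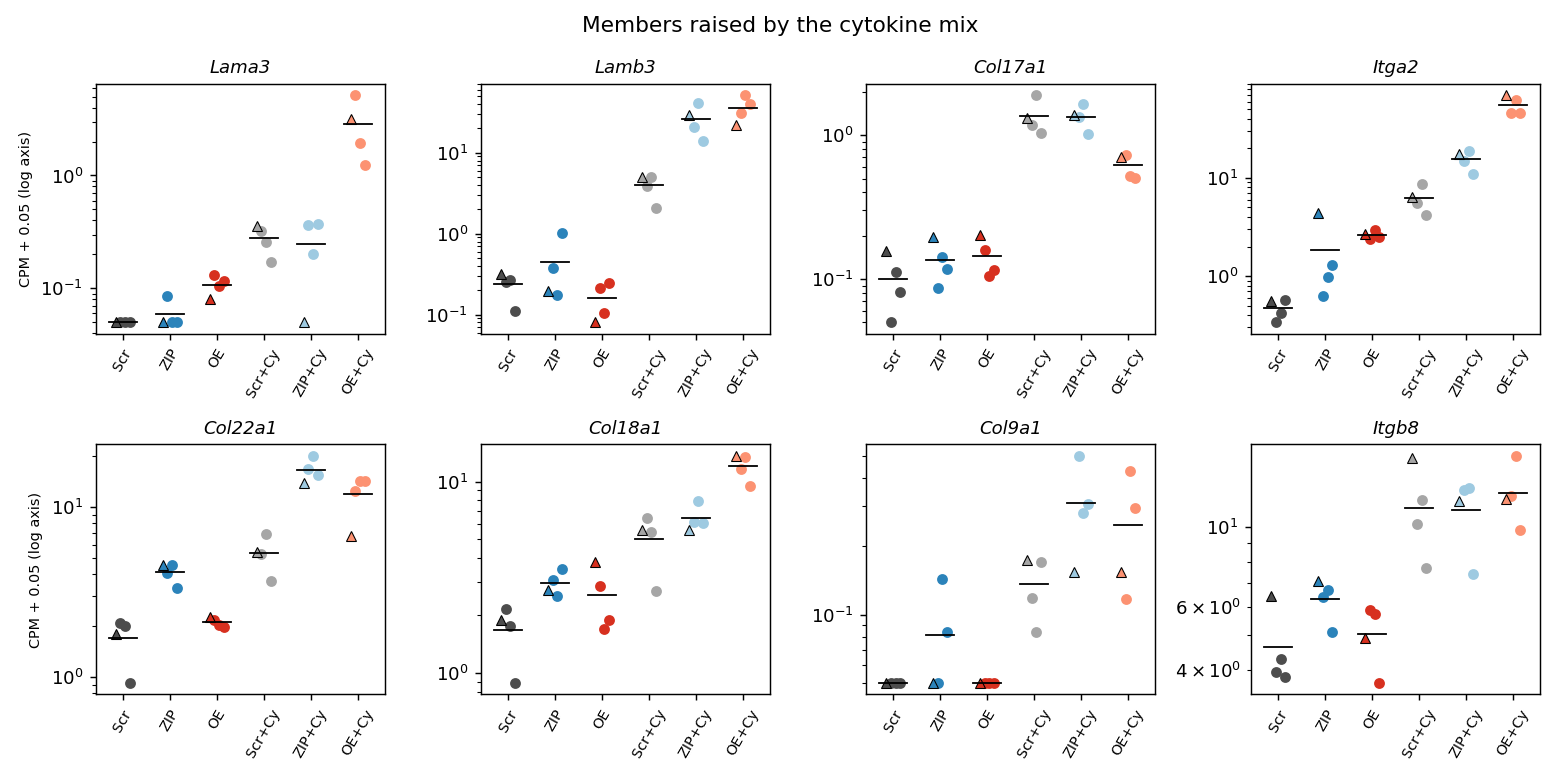
Level of 8 members called higher with cytokines in Scr, ZIP and OE, as CPM + 0.05 on log axes that differ between panels, with 1 point per library, a triangle for replicate 1 and a line at the mean. Lamb3 and Itga2 lie higher in ZIP+Cy and OE+Cy than in Scr+Cy, whereas Itgb8 reaches a similar level in the 3 treated lines.

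Promoters of these members were examined because they moved together. RefSeq start sites (GRCm38.p6) were listed for 58 of the 82 members and 6 of the 9 raised in every line. In the 250 bases before each start, 4 motifs were searched on both strands, namely the κB motif, the interferon-γ activation site (GAS) TTCNNNGAA, the interferon-stimulated response element ISRE and the AP-1 motif TGANTCA. The shares of 32851 promoters that hold them were 7.25%, 7.02%, 2.98% and 6.75%. Among the raised members, the κB motif was matched at the second start of Lamb3, positions −226 to −217, and at the second start of Col9a1, positions −198 to −189, and no other match was found in these windows. The second Lamb3 window (chr1:193301993-193302242) begins at the last base of the first window, so its match lies downstream of the first start. The Lamb3 match is shown in capitals with 10 bases on either side.
Lamb3, second start: cacccagccaGGGAGTCTCCagaggtgagg
The windows before the first Lamb3 start (chr1:193301744-193301993), the Itga2 start (chr13:114932101-114932350) and the Col17a1 start (chr19:47692043-47692292), shown for 3 raised members that lay above the floor, held no match.
Lamb3, first start: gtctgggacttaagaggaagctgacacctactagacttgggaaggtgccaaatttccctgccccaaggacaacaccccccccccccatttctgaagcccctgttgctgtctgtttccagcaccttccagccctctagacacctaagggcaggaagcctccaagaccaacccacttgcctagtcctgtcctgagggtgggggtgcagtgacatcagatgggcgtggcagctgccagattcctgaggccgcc
Itga2: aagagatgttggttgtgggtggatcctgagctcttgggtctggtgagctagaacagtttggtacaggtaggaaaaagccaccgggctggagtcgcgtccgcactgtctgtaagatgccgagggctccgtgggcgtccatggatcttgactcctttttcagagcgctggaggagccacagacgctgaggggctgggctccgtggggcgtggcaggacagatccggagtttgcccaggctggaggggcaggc
Col17a1: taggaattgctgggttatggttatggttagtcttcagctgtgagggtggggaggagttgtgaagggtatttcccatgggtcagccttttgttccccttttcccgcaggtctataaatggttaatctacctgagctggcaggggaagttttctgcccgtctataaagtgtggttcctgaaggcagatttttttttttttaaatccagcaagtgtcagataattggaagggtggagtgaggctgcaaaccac
The first of these is on the plus strand and the others are on the minus strand, each written in the direction of transcription. A match says only that the letters are there, and its absence says nothing about the factors.

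Differences between the lines in their response to cytokines were tested with interaction terms. For ZIP against Scr, no member was called higher or lower, compared with 0.0509% and 0.00565% of all genes. An unadjusted p value under 0.05 was found for 12 members, and DESeq2 called 1 (Lama1). Lama1 had the smallest adjusted p value (0.0584), as it rose from 14.2 ± 2.17 to 29.6 ± 2.67 CPM in ZIP (1.06, adjusted p = 2.54e-05) while it was at 42.2 ± 12.7 and 39.8 ± 7.68 CPM in Scr and Scr+Cy. Replicate numbers were also judged to pair the treated and untreated libraries of each line. With the replicate as a block, which the main fit leaves out, Lama1 (adjusted p = 5.18e-04) and Lama2 (0.0398) were called.

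For OE against Scr, the response of 13 members differed, 8 of them more positive in OE (9.64% of all genes) and 5 more negative (10.3%). Of the 13, 10 were called without the P65 libraries, and Lamb3 (adjusted p = 0.0953), Col17a1 (0.0602) and Itgb1bp1 were not. Lamb3 had the most positive value (3.98, SE 1.21, adjusted p = 0.0213). Itgav was at 186, 178, 182 and 165 CPM in OE and at 269, 260, 319 and 216 CPM in OE+Cy, whereas Scr and Scr+Cy were at 336 to 377 and 354 to 387 CPM (interaction 0.51, SE 0.11, adjusted p = 0.00206). Lamc1, Itga3, Itgb5 and Itgb1bp1, a protein that binds the β1 tail, likewise had more positive responses in OE, by 0.43, 0.35, 0.29 and 0.31 on the log2 scale, from responses in Scr of 0.13 or less. Lama1 and Lama5 were included as well (1.20 and 0.59), at OE+Cy levels of 1.14 ± 0.255 and 4.01 ± 0.391 CPM that remained far below those of Scr+Cy.

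Of the 5 members with a more negative response in OE, Col6a3, the large chain of type VI collagen, had the smallest adjusted p value. It was at 34.2, 35.8, 38.3 and 31.0 CPM in OE and at 15.7, 11.8, 6.06 and 8.51 CPM in OE+Cy, against 38.2 to 48.8 CPM in Scr and 34.7 to 41.9 CPM in Scr+Cy (interaction −1.57, SE 0.23, adjusted p = 4.21e-05). Col27a1 fell from 147 ± 32.4 to 62.1 ± 35.3 CPM in OE (−1.24, adjusted p = 4.21e-04) and was at 39.2 ± 3.57 and 38.6 ± 3.38 CPM in Scr and Scr+Cy (interaction −1.22, adjusted p = 0.0231). Col8a1 and Lamb1 fell by 0.87 and 0.92 in OE, and their interactions were −1.56 and −1.46 (adjusted p = 0.00979 and 0.0147). The summed collagen level was 145 ± 35.4 CPM in OE+Cy, compared with 300.0 ± 46.7 CPM in Scr+Cy.

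**Figure D4:**
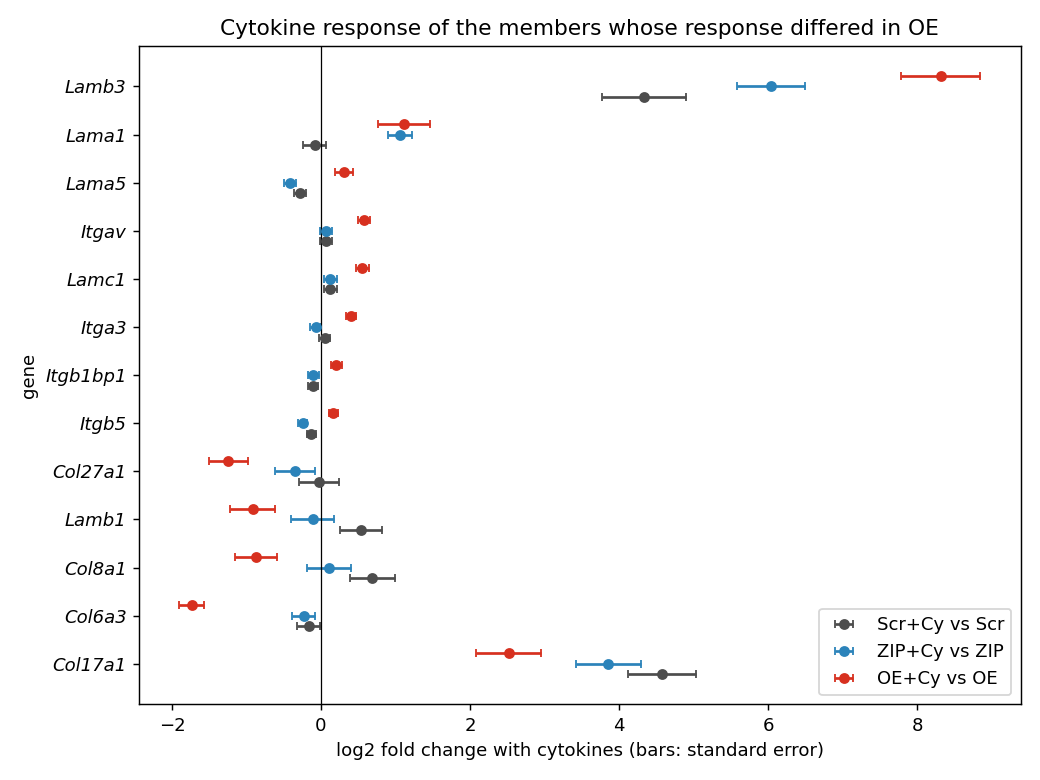
Log2 fold change with cytokines in Scr, ZIP and OE for the 13 members whose response differed between OE and Scr, with bars for the standard error. Responses of Itgav, Lamc1 and Itga3 are near 0 in Scr and ZIP and positive in OE, and Col6a3 and Col27a1 fall in OE.

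Genes that process or connect these proteins were examined as lists. Of 24 measured genes of collagen processing, 1 was higher and 9 were lower in OE than in Scr (10.4% and 13.4% of all genes), and 1 was higher and 14 were lower in OE+Cy than in Scr+Cy (12.7% and 14%). In ZIP, 5 were higher and 0 lower than in Scr (6.29% and 5.89%). Without the P65 libraries the counts were 1 and 8 in OE, 1 and 12 in OE+Cy and 6 and 0 in ZIP. The median log2 fold change of the list was −0.19 in OE, −0.86 in OE+Cy and 0.30 in ZIP. Loxl2, a lysyl oxidase that cross-links collagen, stood at 454 ± 55.3 and 322 ± 25.1 CPM in Scr and Scr+Cy and at 259.9 ± 22.6 and 109 ± 14.7 CPM in OE and OE+Cy (OE+Cy versus OE −1.25, adjusted p = 4.67e-10). Crtap, a subunit of the complex that hydroxylates prolines of collagen, stood at 40.5 ± 2.95, 82.5 ± 7.62 and 14.3 ± 0.271 CPM in Scr, ZIP and OE (1.03 and −1.50). Neighbouring genes on the chromosome were examined for named members only, not for Crtap or this list. The part of chromosomal position in the ZIP values of the list was not tested. Pxdn, which cross-links type IV collagen, was 2.95-fold lower in OE than in Scr and rose with cytokines in all 3 lines (0.71, 0.86 and 1.81).

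Of 18 measured matrix partners, 1 was higher and 5 were lower in OE than in Scr, and 2 were higher and 7 lower without the P65 libraries, beside the 10.4% and 13.4% of all genes. The higher was Spp1 (osteopontin), a ligand of Itgav integrins, at 91.2 ± 19.1 CPM in OE and 0.441 ± 0.641 CPM in Scr (7.60, SE 0.70, adjusted p = 2.04e-09). Agrn, a basement membrane proteoglycan, was at 8.29 ± 0.873 CPM in OE and 43.0 ± 8.29 CPM in OE+Cy (2.38, adjusted p = 7.5e-15). Of 30 measured genes of integrin adhesion, 3 were higher and 8 lower in OE (3 and 7 without the P65 libraries), and the higher share is close to that of all genes. Sdc4, a proteoglycan co-receptor of integrins, rose with cytokines by 2.37, 2.68 and 3.12 in Scr, ZIP and OE, and Ddr2, a receptor tyrosine kinase for fibrillar collagen, by 1.69, 1.24 and 3.86. Cd9, a tetraspanin that associates with integrins, was lower in ZIP (0.526 ± 0.337 CPM) than in Scr (11.97 ± 0.629 CPM) (−4.51, adjusted p = 9.22e-10). Of 13 proteases and inhibitors, 2 were higher and 4 lower in OE (1 and 6 without the P65 libraries), and Timp2 was among the lower ones (36.1 ± 5.01 CPM in Scr, 3.57 ± 0.702 CPM in OE).

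A final group of members moved with the connective tissue markers. Col1a1 and Col1a2 form type I collagen, Col5a1 and Col5a2 encode chains of type V collagen, Col3a1 encodes type III collagen, and Lama2 is the α chain of the laminin of muscle and nerve. Col1a1 was at 5.50, 12.6 and 16.3 CPM in replicate 1 of Scr, ZIP and Scr+Cy and at 0.062 to 2.41 CPM in replicates 2 to 4 of these groups. Col3a1 was at 4.10, 8.53 and 10.7 CPM in the same libraries and at no more than 1.31 CPM in any other, and it was not called in any comparison. Lama2 was at 2.02, 3.70 and 6.40 CPM in the same 3 libraries and at no more than 0.186 CPM in any other. Col5a1 reached 5.27 CPM in replicate 1 of Scr+Cy, against 0.0344, 0.0686 and 0.030 CPM in the others of that group. In OE+Cy, every library of Lama2 was at 0, and in ZIP+Cy 1 library held it at 0.0691 CPM. Against Scr+Cy, Col1a2, Col5a1, Col5a2 and Lama2 were called lower in ZIP+Cy and OE+Cy, and Col1a1 in OE+Cy, and none of these was called without the P65 libraries. Col5a1 changed sign there, to 0.63 in ZIP+Cy and 0.29 in OE+Cy. Col15a1, a basement membrane collagen, was called lower in ZIP+Cy than in ZIP (adjusted p = 0.0333) with 6.29 CPM in ZIP replicate 1 and 0.062 to 0.168 CPM in the others, and not without the P65 libraries (−0.46, adjusted p = 0.82). Col15a1 was also called lower in OE+Cy than in Scr+Cy, with and without these libraries (−3.92 and −2.47, adjusted p = 0.0273 and 0.0242). In replicates 2 to 4 it held only 0, 0 and 7 reads in OE+Cy and 18, 15 and 6 in Scr+Cy. The libraries overlapped, as replicate 4 was at 0.213 CPM in OE+Cy and 0.180 CPM in Scr+Cy. The part of connective tissue transcripts in these differences was not tested.

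**Figure D5:**
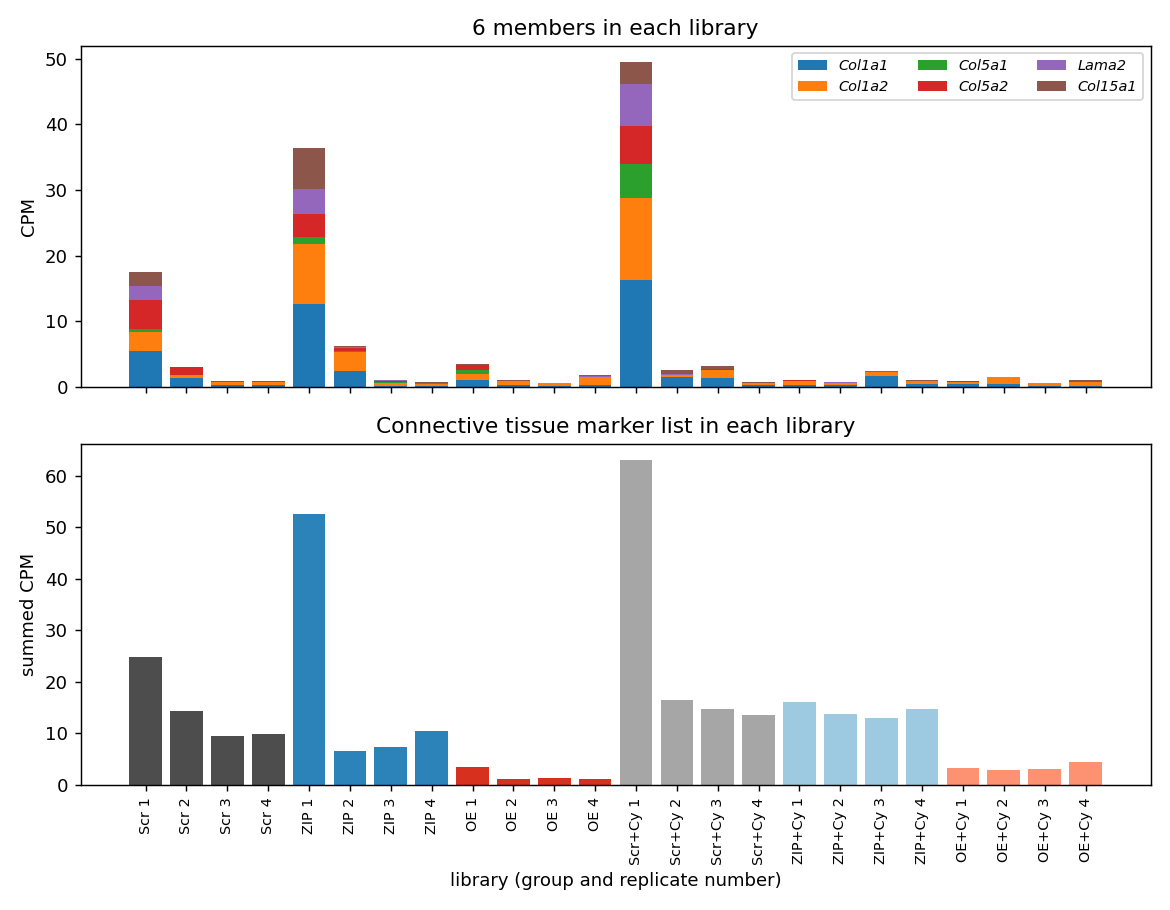
Summed CPM of Col1a1, Col1a2, Col5a1, Col5a2, Lama2 and Col15a1 (upper bars, stacked) and of the connective tissue marker list (lower bars) in each of the 24 libraries. Replicate 1 of Scr, ZIP and Scr+Cy stands above the rest in both, with marker sums of 24.7, 52.5 and 63.0 CPM.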

How the data were processed

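RNA-seq libraries of MIN6 stable lines (24, 4 in each of 6 groups) were assigned to groups and replicate numbers from their labels. According to the submitters' processing notes, STAR 2.7.8a, Partek 11.0.24.0204, FastQC, DESeq2 and the mm10 build were used, and use of strand is not given in the sources used here, so reads of overlapping or antisense genes cannot be separated. The values deposited by the authors were estimated counts, not normalized, for genes that had a total of at least 10 reads, and 30.1% of the values were fractional. A second deposited table of normalized values was not used here.

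Estimated counts were rounded, and all 17696 genes were fitted with 6 group means in edgeR 4.0.16 (R 4.3.3, TMM, glmQLFit and glmQLFTest). The Benjamini-Hochberg adjustment was made over all genes, and the SE is the log2 fold change divided by the square root of F. Interactions were called at an adjusted p value under 0.05 with no fold change limit. On data simulated for ZIP versus Scr (17696 genes), 88% of 100 genes changed by a log2 value of 1 and 97% of 100 changed by a log2 value of 2 were called, with 1 false call. The changed genes were drawn only from genes with mean counts above the floor, and no simulated library was made to stand apart. These rates therefore do not cover members near the floor or differences that rest on the P65 libraries. Levels per kb used union exon lengths of the mouse annotation (82 members matched). Floors cover counting error only.

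Whether replicate numbers pair libraries was judged by how deviations of same-numbered libraries from their group means correlated across genes. Every number exceeded 0.1 in ZIP+Cy versus Scr+Cy (0.128 to 0.249) and in treated versus untreated Scr (0.235 to 0.601), ZIP (0.16 to 0.28) and OE (0.114 to 0.364), and not in the other comparisons. Libraries of different number were not correlated in this way, so these values have no baseline, and the labels do not state a pairing.

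Members named were those with a mean of at least 10 CPM in a group, up to 10 called members in each direction of a comparison with at least 1 CPM in either group, and up to 10 members by adjusted p value in each interaction. Some genes are not reported here by name, and counts of members include them. Members and gene lists were chosen with earlier results of these data known. Alternatives were DESeq2 1.42.0, its size factors, the filterByExpr filter, only the groups compared, the replicate block, an unadjusted p value, each library left out, and no P65 libraries. Leaving out the second Scr library as well was chosen after seeing the data.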

Additional observations from a re-analysis of the deposited data

Results flagged for a closer look

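In 222 groups of 4 libraries of named members, the highest or lowest library stood apart from the other 3 by Dixon's test in 25, in 11 members, where chance gives about 1 in 20. Replicate 1 was the library that stood apart in 19 of the 25. In Scr replicate 1, these were Lama2 (2.02 CPM), Col5a1 (0.566 CPM), Col1a2 (2.81 CPM) and Col15a1 (2.10 CPM). In ZIP replicate 1, they were Col6a2 (2.52 CPM), Col5a2 (3.55 CPM), Lama2 (3.70 CPM), Col5a1 (1.13 CPM), Col28a1 (1.02 CPM) and Col15a1 (6.29 CPM). In Scr+Cy replicate 1, they were Col5a2 (5.76 CPM), Lama2 (6.40 CPM), Col5a1 (5.27 CPM), Col1a2 (12.5 CPM), Col1a1 (16.3 CPM) and Col15a1 (3.29 CPM). In OE replicate 1, they were Col5a2 (0.756 CPM), Col5a1 (0.574 CPM) and Col1a1 (1.09 CPM). The part of connective tissue transcripts in these values was not tested.

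The other 6 values that stood apart were those of Scr replicate 2 for Col27a1 (44.5 CPM, against 37.0 to 37.9), Scr replicate 4 for Itgav (377 CPM, against 336 to 342), ZIP+Cy replicate 4 for Itgav (333 CPM, against 379.7 to 388), OE replicate 2 for Lama1 (0.762 CPM, against 0.423 to 0.469), Scr+Cy replicate 3 for Lama1 (51.3 CPM, against 35.1 to 36.9) and ZIP+Cy replicate 3 for Col1a1 (1.69 CPM, against 0.279 to 0.355).

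The response to cytokines differed between OE and Scr cells for 13 members by the interaction test. On the log2 scale the difference was 3.98 for Lamb3, 1.20 for Lama1, 0.59 for Lama5, 0.51 for Itgav, 0.43 for Lamc1, 0.35 for Itga3, 0.31 for Itgb1bp1, 0.29 for Itgb5, −1.22 for Col27a1, −1.46 for Lamb1, −1.56 for Col8a1, −1.57 for Col6a3 and −2.05 for Col17a1.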

How the results depend on the processing

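Without the P65 libraries, 12 members in place of 20 were called in ZIP+Cy versus Scr+Cy, and 13 were called without the second Scr library as well. That library is not part of this comparison and enters it only through the fit shared by all groups. Numbers of members called in that setting against untreated Scr are not given here. With each library left out in turn, the number ranged from 9 to 22 in this comparison, with 9 without Scr+Cy replicate 1, 12 without ZIP+Cy replicate 2 or 4 and 13 without ZIP+Cy replicate 1. It ranged from 14 to 18 in ZIP versus Scr, 17 to 25 in OE versus Scr, 26 to 36 in OE+Cy versus Scr+Cy, 12 to 15 in Scr+Cy versus Scr, 12 to 17 in ZIP+Cy versus ZIP, 22 to 27 in OE+Cy versus OE, 0 to 1 in the ZIP interaction and 9 to 15 in the OE interaction. The ZIP interaction called 1 member without Scr replicate 1, ZIP replicate 3 or Scr+Cy replicate 3, 1 with DESeq2 and 2 with the replicate block. At an unadjusted p value under 0.05, 20 members in place of 12 were called in Scr+Cy versus Scr. The replicate block left every other number within 1.5 times and, in the paired comparisons, added Col15a1, Col3a1 and Col5a3 in ZIP+Cy versus Scr+Cy, Col5a1 in Scr+Cy versus Scr, and Col1a2, Col5a2, Col5a3, Itga1 and Lama2 in ZIP+Cy versus ZIP. In OE+Cy versus OE it added Col5a3, Col9a2 and Itgb2 and lost Col6a4. Col5a1 changed sign in ZIP+Cy versus Scr+Cy without the P65 libraries (0.63), without Scr+Cy replicate 1 (0.43) and without the second Scr library as well (0.62), with a range of −4.80 to 0.43 over the libraries left out in turn, and in OE+Cy versus Scr+Cy in the first and last of these settings (0.29 and 0.26). The cause of these changes was not tested. Of 1668 values of named members across all alternatives, 1520 kept their direction and their side of the threshold and 143 kept their direction but no longer passed it. Some members below 1 CPM held 3 reads or fewer in each library of both groups compared, which leaves no fold change to measure.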
